A study of Mus musculus with 6 samples.

Results

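The 10 genes described here encode factors by which osteoclasts, the multinucleated cells that resorb bone, are known to act on the cells that form it: Wnt10b, Bmp6, Tgfb1, Igf1, Pdgfb, Lif, Cthrc1, Sema4d, Efnb2 and Sphk1. They were taken by gene symbol from a deposited table of 16775 genes. All 10 were listed in it, and 9 were expressed highly enough to be tested, Bmp6 being the exception. The rule picks them by symbol and uses no measured value, but the list was chosen with earlier results of these data known.

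The libraries came from bone marrow-derived macrophages of wild-type mice, grown with M-CSF and turned into osteoclasts with M-CSF and RANKL. The control group received nothing else that the labels name, and the other group was treated with verapamil, a drug that blocks L-type calcium channels. The titles give day 5 for all libraries, whereas the protocol describes medium changes up to day 7, so the stage of the culture is uncertain. For the drug, dose and timing are not given in the sources used. Control replicates 1 and 3 and verapamil replicates 1, 2 and 3 were compared, and control replicate 2 was not analysed here.

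Bone resorption is normally followed by formation at the same site, and the link between them is called coupling. Osteoclasts contribute growth factors that resorption frees from the matrix (TGF-beta1 and IGF-1), secreted ligands (WNT10B, BMP6, PDGF-BB, LIF and CTHRC1), membrane proteins that touch osteoblasts (ephrin-B2 and semaphorin 4D) and a lipid, sphingosine 1-phosphate, made by the kinase SPHK1. Semaphorin 4D is known as an inhibitor of osteoblast formation, whereas most of the others are known to recruit or stimulate osteoblast lineage cells. None of the products was measured here, since the data are RNA counts from the osteoclast culture alone.

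With verapamil 7 of the 9 tested coupling genes fell (Wnt10b, Cthrc1, Sphk1, Lif, Efnb2, Pdgfb and Igf1), Sema4d rose, and Tgfb1 did not pass the test. The folds ran from 7.56-fold lower for Wnt10b to 1.27-fold lower for Igf1, and Sema4d was 1.37-fold higher. A gene was called at a Benjamini-Hochberg adjusted p under 0.05 in edgeR's quasi-likelihood test over 12619 genes, of which 25.4% were called, 9.99% as higher and 15.4% as lower. The groups did not overlap for 7 tested members that were lower and 1 that was higher. Over all tested genes 29% were lower and 27.7% higher without overlap. The calls of Wnt10b, Sphk1 and Pdgfb held under all 13 alternative settings, while those of the other 5 were lost under at least 1 of them, as given with each gene.

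**Figure D1:**
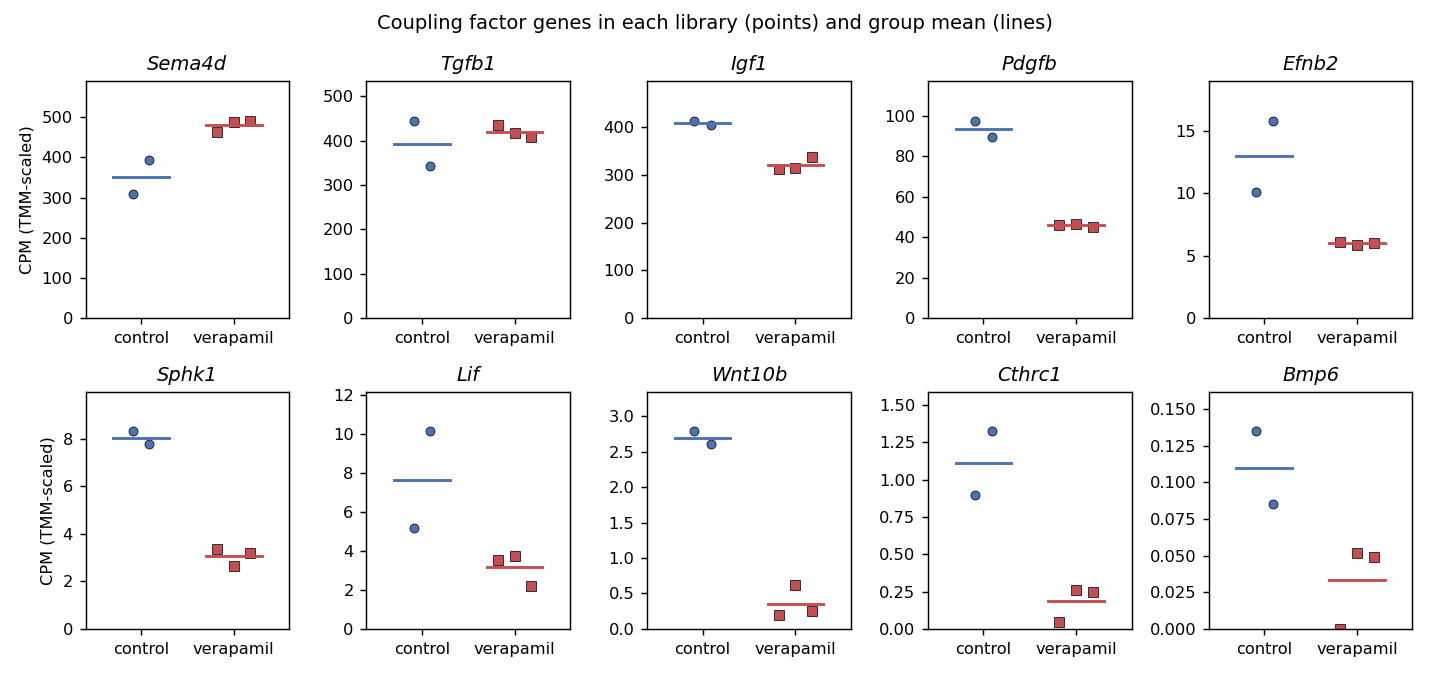
Level in CPM (on library sizes adjusted by TMM factors, y axis from 0) of the 10 coupling genes in 2 control libraries (blue circles) and 3 verapamil libraries (red squares), with lines at the group means. All 3 verapamil libraries lie below both controls for each gene but Sema4d, where they lie above, and Tgfb1, where the groups overlap.

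Libraries held 20202340 to 21494523 estimated counts. The controls differed from each other by 29.4 times the variance of counting alone, against 2.06 to 3.84 times for pairs of verapamil libraries. Such multiples are medians over genes with at least 50 counts in the pair, scaled by total count without TMM factors. On this measure control replicate 1 stood apart, at 43.4 to 54.5 times from the verapamil libraries. Control replicate 3 was nearer to them (22 to 25.5 times) than to the other control. Log2 values without each control are therefore given where they move a result. They carry no p-value, as the spread then comes from the treated libraries alone. Nothing in the labels says that replicates came from separate mice or cultures, so the spread that the p-values rest on is the one between these 5 samples and may be technical. Below, ± is the SD over 2 controls or 3 verapamil libraries, adjusted p-values are from edgeR, and "rose by" or "fell by" gives a log2 difference. Of the called genes 39.4% were higher. That share was 28.2% with upper quartile factors and 17.7% with scaling by total count, under which the median log2 value over the tested genes moved from -0.013 to -0.13 and -0.20. It was 45.5% with DESeq2 and 30.1% to 32.1% without 1 verapamil library.

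Markers of the labelled cell type were present in all libraries, and their sum was lower with verapamil. The 16 osteoclast markers summed to 8216 and 8872 CPM (counts scaled by TMM-adjusted library size) in the controls and 4608 to 4783 CPM with verapamil, with 9 called lower and 3 higher. In the controls most of that sum was Mmp9, Acp5 and Ctsk. Acp5, the tartrate-resistant acid phosphatase, had a log2 difference of -1.85 with SE 0.0975 (adjusted p = 0.000437). The 3 called higher, named after their values were seen, were Atp6v0d2, Clcn7 and Ostm1, with log2 differences of 0.98, 0.52 and 0.42. Their adjusted p-values were 0.00159, 0.029 and 0.0205. Nfatc1, Itgb3, Tcirg1 and Src were not called. Markers of marrow stromal cells and osteoblasts moved with most of the coupling genes. Of that list 13 of 15 tested genes were lower and 0 higher, and the 18 listed genes summed to 1110 and 1324 CPM in the controls and 480 to 495 CPM with verapamil. Col1a1, a collagen chain, averaged 394 ± 54.9 CPM (SD, n = 2) in the controls and 142 ± 4.41 CPM (SD, n = 3) in treated libraries.

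The other marker lists did not all move in one direction. Macrophage markers summed to 29858 and 29893 CPM in the controls and 40673 to 44320 CPM with verapamil, a sum dominated by Lyz2, although 10 of 16 were lower and 2 higher. Endothelial markers rose in sum from 79.2 and 110 CPM to between 309 and 365 CPM through Vwf and Kdr, while Pecam1 and Emcn, chosen after their values were seen, were called lower and 9 of the 14 markers stayed under 1 CPM in every library. Pecam1 missed the threshold when verapamil replicate 1 (adjusted p = 0.0524) or replicate 3 (0.0599) was left out, and Emcn when verapamil replicate 2 was (adjusted p = 0.0709). Platelet markers summed to 26.4 and 40.5 CPM in the controls and 7.28 to 7.54 CPM with verapamil. Most of the control sum was Pf4, which had a log2 difference of -5.06 with SE 0.266 (adjusted p = 0.000437). Of 6 tested platelet genes 3 were called lower and 0 higher, and 2 that were not called were higher without overlap. Lymphoid markers summed to 213 and 299 CPM in the controls and 395 to 427 CPM with verapamil, nearly all from Cd4. Neutrophil markers stayed between 38.8 and 53.4 CPM in all libraries, with 1 of 4 tested genes higher and 1 lower. The part of these cell types in the values below was not tested. In such cultures fewer cells of a type and less RNA per cell cannot be told apart.

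**Figure D2:**
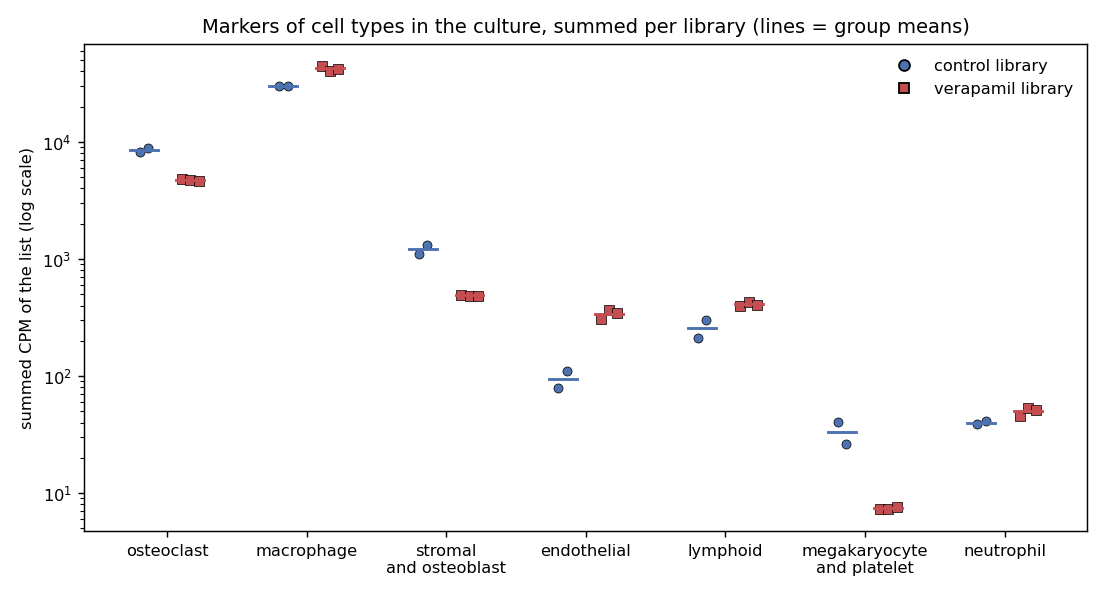
Summed CPM (log scale) of 7 lists of cell type markers in each library, circles for controls and squares for verapamil, with lines at the group means. The osteoclast, stromal and platelet sums are lower in all 3 verapamil libraries, and the macrophage, endothelial, lymphoid and neutrophil sums are higher.

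Levels of different members can be compared only per length, so CPM was divided by the length of each gene's exons. On that scale Tgfb1 was the most abundant, at 181 ± 33.6 CPM per kb in the controls (SD, n = 2) and 193 ± 6.41 with verapamil (SD, n = 3). Sema4d followed with 74 ± 12.8 and 101 ± 3.32, then Igf1 with 41.3 ± 0.589 and 32.4 ± 1.39, and Pdgfb with 31.8 ± 1.9 and 15.6 ± 0.296. Efnb2, Sphk1 and Lif lay between 1.89 and 2.70 CPM per kb in the controls, where their order was within the spread of the libraries. Cthrc1 (0.953 ± 0.257) and Wnt10b (0.793 ± 0.0379) were not separated in the controls either, and Bmp6 was the lowest at 0.0306 ± 0.00973. The levels therefore spanned a group of 4 well expressed genes and a group of 6 weakly expressed ones.

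**Figure D3:**
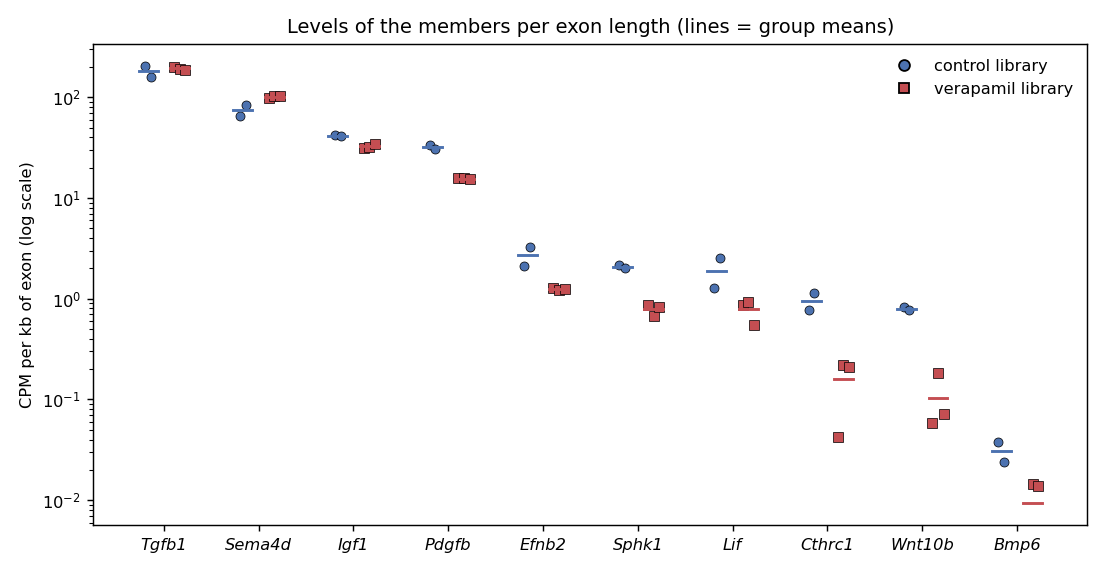
Levels of the members in CPM per kb of exon (log scale), ordered by the control mean, circles for controls and squares for verapamil, with lines at the group means. Tgfb1 is highest at 181 CPM per kb in the controls and Bmp6 lowest at 0.0306, and 1 verapamil library with a Bmp6 count of 0 is not drawn on the log axis.

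The sum over the 10 genes overlapped between the groups, at 1268 and 1292 CPM in the controls and 1270 to 1294 CPM with verapamil. Sema4d, Tgfb1 and Igf1 together made up 89.9% and 90.3% of it in the controls and 95.3% to 95.6% with verapamil. The 7 other members summed to 125 and 128 CPM in the controls and to 56.9, 59.4 and 59.8 CPM with verapamil.

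Wnt10b (Entrez 22410, GRCm38 chromosome 15, 98770712 to 98778206), which encodes a ligand of the canonical Wnt pathway that drives osteoblast differentiation, had the largest change. Its level was 2.79 and 2.60 CPM in control replicates 1 and 3, and 0.197, 0.620 and 0.246 CPM in verapamil replicates 1, 2 and 3. Both controls lay above all treated libraries, among which replicate 2 was the highest. On the log2 scale the difference was -2.92 with an SE of 0.417 and an adjusted p of 0.00491, from 123 control and 21 verapamil counts. By these sums the ratio of verapamil to control was 0.130, with an exact 95% binomial interval of 0.0777 to 0.208 that covers counting error only. Without verapamil replicate 2 the estimate was -3.58.

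Other genes of the Wnt pathway were more often called lower than higher, and its secreted inhibitors went in both directions. Of 23 tested genes (receptors, inhibitors, secretion factors, relatives and targets, without Wnt10b) 13 were lower and 3 higher. Sfrp4, Sfrp1 and Sfrp2, secreted decoys that bind Wnt proteins, were lower, with log2 differences of -2.78, -2.54 and -2.50 (adjusted p = 0.00134, 0.0043 and 0.00166). The receptor Fzd8 fell by 2.09 (adjusted p = 0.00632). Dkk2, which binds the co-receptor LRP6, rose from 8.36 ± 0.439 to 16.4 ± 0.959 CPM (log2 0.98, adjusted p = 0.00317), and Znrf3, a ligase that removes Frizzled receptors, rose by 0.84 (adjusted p = 0.0291). The latter call was lost with total count scaling and without any 1 verapamil library. Wls, the carrier that brings Wnt proteins to the cell surface, and Porcn, which acylates them, were chosen after their values were seen. They changed by 0.40 and -0.89 (adjusted p = 0.0463 and 0.0449). Each call was lost without a low-count filter, with the replicate block and without any 1 verapamil library, among other settings. The stromal markers were lower too, as given above, and the part of stromal cells in these values was not tested.

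Cthrc1 (Entrez 68588, chromosome 15, 39076932 to 39087121), a secreted protein that resorbing osteoclasts release and that acts on stromal and osteoblastic cells, was also reduced. It had 0.899 and 1.32 CPM in the controls and 0.0492, 0.258 and 0.246 CPM with verapamil, so the groups did not overlap but all libraries were near the detection limit. The estimate was a log2 difference of -2.56 with an SE of 0.529, at an adjusted p of 0.0172, from 51 control and 11 verapamil counts. The ratio was 0.164 by counts (exact 95% binomial interval 0.0772 to 0.319). Without verapamil replicate 3 the adjusted p was 0.0544, with a log2 fold change of -2.83. Ror2, a receptor of non-canonical Wnt signalling with which CTHRC1 is known to interact, was chosen after its values were seen and fell by 1.31 (adjusted p = 0.00886).

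Sphk1 (Entrez 20698, chromosome 11, 116530836 to 116536675), the kinase that makes sphingosine 1-phosphate, fell 2.62-fold. Its level was 8.32 and 7.77 CPM in the controls and 3.34, 2.63 and 3.20 CPM with verapamil. The groups were far apart, the lowest control being above the highest treated library by more than the range within either group. This was a log2 difference of -1.39 (with SE 0.165 and adjusted p = 0.00263). In GENCODE M21, 4.02% of its exon bases overlap the antisense transcript Gm29292, and since use of strand in counting is not given, reads from those bases cannot be assigned.

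The second kinase of the pathway did not pass the test. Sphk2 had 96.2 ± 12.9 CPM in the controls and 98.7 ± 4.51 CPM in treated libraries (log2 0.037 with SE 0.118, adjusted p = 0.834), and its sign turned under upper quartile factors, under total count scaling and without control replicate 3. Per length, Sphk1 made up 7.79% and 8.72% of both kinases in the controls and 3.38%, 2.74% and 3.53% with verapamil. The exporter Spns2, which releases sphingosine 1-phosphate from cells, fell from 15.2 ± 4.65 to 5.59 ± 0.763 CPM (log2 -1.45, adjusted p = 0.00648). The receptors S1pr3 and S1pr1 were lower by log2 differences of -2.53 and -1.25 (adjusted p = 0.00168 and 0.00105), whereas S1pr2, the receptor that repels precursors, had 98.5 ± 2.96 and 113 ± 3.87 CPM (log2 0.20, adjusted p = 0.163). Without control replicate 1 the log2 difference of S1pr2 was 0.23.

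Enzymes that remove sphingosine 1-phosphate or feed its synthesis went in both directions. The phosphatase Plpp3 rose by 1.09 (adjusted p = 0.0093), and its relative Plpp1, chosen after its values were seen, fell by 1.70 (adjusted p = 0.000799). The lyase Sgpl1, which degrades the lipid, had 664 ± 177 CPM in the controls and 1001 ± 47.9 CPM with verapamil and just missed the threshold (log2 0.59, adjusted p = 0.0502). It passed with DESeq2, limma, the replicate block, another scaling (RLE) and no low-count filter. It missed under upper quartile and total count scaling, under the stricter filter and without any 1 verapamil library. Asah1, the ceramidase that supplies sphingosine, rose by 0.52 (adjusted p = 0.0361), a call lost with upper quartile or total count scaling and without any 1 verapamil library. In all, 5 of 17 tested genes of this pathway were lower and 2 higher, with a median log2 fold change of -0.026 against -0.013 over all tested genes.

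Pdgfb (Entrez 18591, chromosome 15, 79995865 to 80024614) encodes the chain of PDGF-BB, which precursors of osteoclasts secrete and which recruits vessel and mesenchymal progenitors. It had 97.7 and 89.8 CPM in the controls and 46.2, 46.6 and 45.0 CPM with verapamil, a narrow spread within each group and no overlap. It was 2.04-fold lower (log2 -1.03 with SE 0.0949, adjusted p = 0.00121), the smallest p of the 9 members.

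The other PDGF genes were all tested. Pdgfa, which can pair with the B chain, averaged 41.4 ± 2.06 and 47.7 ± 0.704 CPM (log2 0.20, adjusted p = 0.175). Without control replicate 1 its log2 difference was 0.26. Pdgfc and Pdgfd had log2 differences of -0.53 and -1.05 (adjusted p = 0.0129 and 0.0337), and the receptors Pdgfra and Pdgfrb, which are marks of mesenchymal cells, of -0.83 and -1.51 (adjusted p = 0.026 and 0.00144). Of these calls only that of Pdgfrb held in each setting without 1 verapamil library. Per length, Pdgfb was 53.9% and 51.3% of the 4 ligand genes in the controls and 37.0% to 38.0% with verapamil. These 5 genes, the whole list, were chosen for naming after their values were seen.

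Lif (Entrez 16878, chromosome 11, 4257568 to 4272514), a cytokine of the interleukin-6 family that acts on osteoblast precursors through gp130, differed strongly between the controls. It had 5.17 CPM in control replicate 1 and 10.2 CPM in control replicate 3, against 3.54, 3.77 and 2.22 CPM with verapamil. The groups did not overlap, but the lower control was closer to the treated libraries than to the other control. On the log2 scale the difference was -1.27 with an SE of 0.349 and an adjusted p of 0.0429, and it was -0.70 without control replicate 3 and -1.67 without the other control. The gene was no longer called with limma (adjusted p = 0.0529) and without verapamil replicate 1, 2 or 3 (adjusted p = 0.114, 0.0887 and 0.127).

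Of 8 other tested genes of this cytokine family and its signalling 4 were lower and 1 higher. The receptor Lifr fell from 4.94 ± 0.52 to 1.47 ± 0.124 CPM (log2 -1.75, adjusted p = 0.00195), while Il6st, which encodes gp130, had 87.7 ± 48.5 and 113 ± 14.1 CPM (log2 0.36, adjusted p = 0.439). Il6st had a log2 difference of 1.08 without control replicate 3 and of -0.11 without control replicate 1. Among targets of the STAT factors the kinase Pim1 rose by 1.40 (adjusted p = 0.00118) and the feedback inhibitor Socs3, chosen after its values were seen, fell by 0.74 (adjusted p = 0.00569).

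Efnb2 (Entrez 13642, chromosome 8, 8617235 to 8661242) encodes ephrin-B2, the membrane ligand on osteoclasts that binds EphB4 on osteoblasts. It had 10.1 and 15.8 CPM in the controls and 6.10, 5.84 and 6.01 CPM with verapamil. The treated libraries were nearly equal and the controls far apart, without overlap. The estimate was a log2 difference of -1.11 with an SE of 0.207, at an adjusted p of 0.0121, or -0.75 without control replicate 3 and -1.39 without the other control. Without verapamil replicate 1, 2 or 3 the adjusted p was 0.0571, 0.0528 and 0.0543.

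The close relative Efnb1 fell by a similar amount, from 14.4 ± 1.15 to 5.92 ± 0.686 CPM (log2 -1.28 with SE 0.147, adjusted p = 0.00239). Ephb4, the receptor of ephrin-B2, fell from 4.54 ± 0.568 to 1.37 ± 0.289 CPM (log2 -1.72, adjusted p = 0.00389), and the A-type ligand Efna4 fell by 2.15 (adjusted p = 0.00532). In all 5 of 9 tested ephrin and EphB genes besides Efnb2 were lower and 0 higher. Per length, the share of Efnb2 among the B ephrins was 33.3% and 41.1% in the controls and 38.3% to 43.7% with verapamil, so these ranges overlapped.

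The stretches just before the start of 3 members that fell, Wnt10b, Efnb2 and Lif, are shown because no annotated exon lies in them. They also lie outside the RefSeq span of the member itself, while introns of other genes were not checked. They come from the RefSeq promoter table of GRCm38.p6, which held windows for 8 of the 10 members, and are written 5′ to 3′ on the strand of the gene. Capitals mark matches, on either strand, to the motifs searched.

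Wnt10b, chr15:98778207-98778400, minus strand: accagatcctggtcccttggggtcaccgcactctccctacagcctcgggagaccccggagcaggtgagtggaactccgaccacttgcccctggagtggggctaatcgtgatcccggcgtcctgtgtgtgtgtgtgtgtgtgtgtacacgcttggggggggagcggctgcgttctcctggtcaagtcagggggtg

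Efnb2, chr8:8661243-8661492, minus strand: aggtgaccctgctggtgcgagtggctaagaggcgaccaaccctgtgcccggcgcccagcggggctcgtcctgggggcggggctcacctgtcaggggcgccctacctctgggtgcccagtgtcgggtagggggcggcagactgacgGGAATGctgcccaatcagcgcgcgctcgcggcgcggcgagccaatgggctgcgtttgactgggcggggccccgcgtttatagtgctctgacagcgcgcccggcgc

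Lif, chr11:4257318-4257556, plus strand: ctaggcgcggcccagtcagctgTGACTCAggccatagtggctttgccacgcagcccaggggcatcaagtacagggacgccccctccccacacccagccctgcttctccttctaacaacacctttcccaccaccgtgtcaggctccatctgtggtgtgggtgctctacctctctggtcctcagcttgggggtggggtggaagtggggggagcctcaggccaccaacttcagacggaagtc

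The motifs were AP-1 (TGANTCA), CRE (TGACGTCA), the NFAT core (GGAAAA), STAT (TTCNNNGAA), the E-box CACGTG, SMAD (GTCTAGAC) and TEAD (GGAATG), none of which contains another. Lif held 1 AP-1 match, a motif found in 6.75% of the 32851 windows of 250 bases in the table, and Efnb2 held 1 TEAD match, found in 12.6%. Wnt10b held no match, and no motif was shared by these 3 genes. The windows were rich in G and C, with 66.8% for Wnt10b, 72% for Efnb2 and 63.6% for Lif against a median of 52.4%. Such matches are letters in a window and not measured binding.

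Sema4d (Entrez 20354, chromosome 13, 51685529 to 51793678), the membrane semaphorin that restrains osteoblasts through plexin-B1, was the coupling gene that rose. It had 308 and 393 CPM in the controls and 463, 489 and 491 CPM with verapamil, with no overlap. This was a log2 difference of 0.46 (with SE 0.129 and adjusted p = 0.0462), or 0.29 without control replicate 1 and 0.64 without the other control. The estimate was positive in all 13 alternatives, but the call was lost in 7. Among these the adjusted p was 0.0717 with upper quartile factors (log2 0.34), 0.218 with total count scaling (log2 0.27) and 0.0524 with a stricter filter. It was 0.0907 with the replicate block, and 0.133, 0.169 and 0.172 without verapamil replicate 1, 2 or 3.

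Other semaphorin genes and the receptors of semaphorin 4D were not called higher. Of 10 tested, 6 were lower and 0 higher. Plxnb1, the plexin on osteoblasts that binds semaphorin 4D, fell from 2.47 ± 0.375 to 0.900 ± 0.126 CPM (log2 -1.45, adjusted p = 0.00898), and Cd72, the receptor on immune cells, fell by 1.89 (adjusted p = 0.00128). Plxnb2 had 676 ± 95.2 and 726 ± 36.9 CPM (log2 0.10, adjusted p = 0.545). Its sign was negative under upper quartile factors, under total count scaling and without control replicate 1. Without control replicate 3 its log2 difference was 0.25. Sema7a, which is anchored in the membrane by a lipid, fell by 1.77 (adjusted p = 0.00308), and Sema4a, chosen after its values were seen, fell by 0.56 (adjusted p = 0.0103), a call lost without any 1 verapamil library. Per length, Sema4d made up 80.5% and 83.3% of the class 4 semaphorin transcripts in the controls and 88.9% to 89.5% with verapamil.

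Tgfb1 (Entrez 21803, chromosome 7, 25687002 to 25705077), the growth factor that resorption frees from the matrix in latent form, showed no detectable difference. It had 446 and 342 CPM in the controls and 436, 417 and 408 CPM with verapamil, so all treated libraries lay between the 2 controls. On the log2 scale the difference was 0.095 with an SE of 0.132 and an adjusted p of 0.617. Leaving out control replicate 1 moved the Tgfb1 estimate to 0.30, whereas leaving out the other control turned it to -0.083. Its sign was also negative with upper quartile factors (-0.032) and total count scaling (-0.081).

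Both other TGF-beta ligands were lower. Tgfb3 went from 12.4 ± 0.631 to 2.57 ± 0.391 CPM (log2 -2.27, adjusted p = 0.000681) and Tgfb2 from 6.20 ± 1.01 to 2.14 ± 0.118 CPM (log2 -1.54, adjusted p = 0.00262). Tgfb1 made up 97.8% and 96.8% of the 3 ligand genes per length in the controls and 99.3% to 99.5% with verapamil. Lrrc32, which holds latent TGF-beta on the cell surface, Thbs1, a thrombospondin that activates it, and Ltbp1, which anchors it in the matrix, had log2 differences of -2.49, -2.19 and -1.97 (adjusted p = 0.00141, 0.00123 and 0.000531). The receptor Tgfbr2 rose by 0.46 (adjusted p = 0.0419, a call lost in 6 alternatives), and Tgfbr1 had 176 ± 63.3 and 230 ± 19.3 CPM (log2 0.39, adjusted p = 0.235). Tgfbr1 had a log2 difference of 0.81 without control replicate 3 and of 0.066 without control replicate 1.

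Among genes that TGF-beta is known to induce, Ccn2, Ccn1 and Pmepa1 had log2 differences of -2.60, -2.32 and -2.25 (adjusted p = 0.000407, 0.000437 and 0.00068), and Ccn2 went from 98.2 ± 8.07 to 16.2 ± 0.437 CPM. Ccn1 and Ccn2 are also known targets of other pathways and are known to be expressed in stromal cells. The part of stromal cells in these values was not tested. In all, 18 of 30 tested genes of this pathway besides Tgfb1 were lower and 1 higher.

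Igf1 (Entrez 16000, chromosome 10, 87858265 to 87937047), a growth factor that is also stored in bone matrix, fell by a small amount. It had 413 and 405 CPM in the controls and 312, 315 and 337 CPM with verapamil, without overlap and with little spread. The estimate was a log2 difference of -0.35 with an SE of 0.0904, at an adjusted p of 0.0357. The call was lost without a filter on low counts (adjusted p = 0.0542), with the replicate block (0.237) and without verapamil replicate 1, 2 or 3 (adjusted p = 0.163, 0.175 and 0.132), although the estimate stayed between -0.53 and -0.33 in all 13 alternatives.

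Of 11 other tested IGF genes 5 were lower and 1 higher. Igfbp4, a binding protein that holds back IGF-1, fell from 306 ± 52.7 to 136 ± 10.5 CPM (log2 -1.17, adjusted p = 0.00243). Igf2r, which clears IGF-2 and carries lysosomal enzymes, rose by 0.69 (adjusted p = 0.035), a call lost with total count scaling and without any 1 verapamil library. The receptor Igf1r had 23.5 ± 12.9 and 17.9 ± 2.26 CPM (log2 -0.40, adjusted p = 0.393). Igf1r had a log2 difference of -0.86 without control replicate 1 and of 0.31 without control replicate 3. Igf2, chosen after its values were seen, averaged 0.984 CPM in the controls and 0.184 CPM with verapamil, and Igf1 made up more than 99.5% of both ligands per length in every library.

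Bmp6 (Entrez 12161, chromosome 13, 38345716 to 38500314), a bone morphogenetic protein, was too low to test. It had 0.135 and 0.0854 CPM in the controls and 0, 0.0516 and 0.0493 CPM with verapamil, from 5 and 2 counts in all. The ratio of 0.305 had an exact 95% binomial interval of 0.0290 to 1.86, so a difference was not detectable at this depth. In GENCODE M21, 5.74% of its exon bases overlap Txndc5 on the opposite strand. Its relative Bmp2, chosen after its values were seen, fell from 14.0 ± 1.13 to 4.91 ± 0.32 CPM (log2 -1.51, adjusted p = 0.00112), and Gdf15, a distant member of the family induced by stress, rose by 0.87 (adjusted p = 0.017). Of 19 tested BMP genes 7 were lower and 2 higher, the latter being Gdf15 and the helix-loop-helix inhibitor Id2, both calls lost without any 1 verapamil library.

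**Figure D4:**
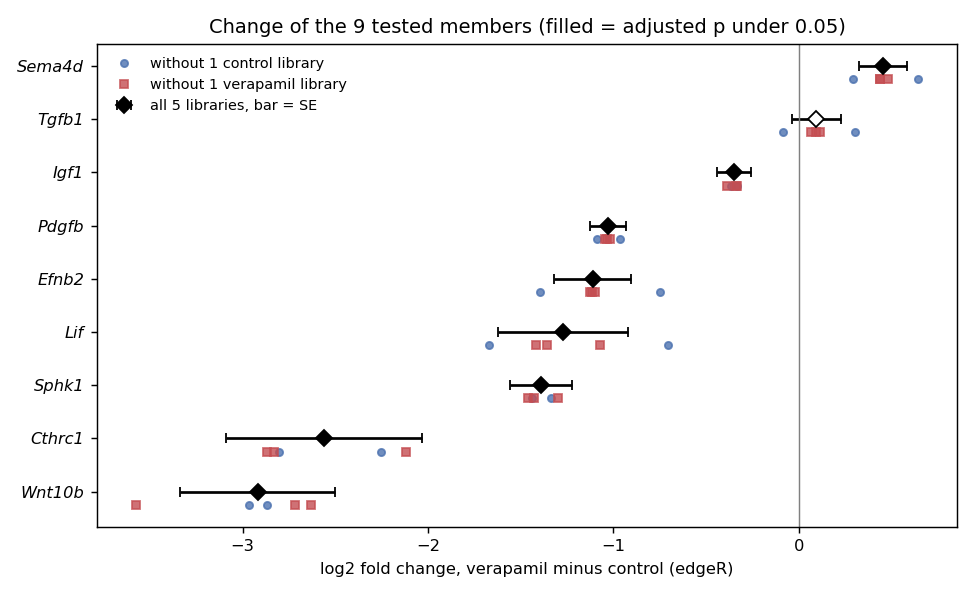
Log2 fold change (x axis, verapamil minus control) of the 9 tested members with all 5 libraries (diamonds, bars are SE, filled where the adjusted p is under 0.05) and with 1 library left out (circles without a control, squares without a verapamil library). Leaving out a control moved Lif from -1.67 to -0.70 and Tgfb1 from 0.30 to -0.083, whereas Pdgfb and Sphk1 stayed close to their estimates.

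Of 10 other tested coupling factors, outside these families, 6 were lower and 0 higher. C3, the source of the complement fragment C3a, fell from 415 ± 73.2 to 64.7 ± 3.39 CPM (log2 -2.68, adjusted p = 0.000437), and the chemokine Cxcl16 fell by 0.46 (adjusted p = 0.022), a call lost with the replicate block and without any 1 verapamil library. The collagen-degrading protease Ctsk, whose loss in osteoclasts is known to raise sphingosine 1-phosphate, fell by 1.22 (adjusted p = 0.00136). Slit3 had 1.01 ± 0.799 and 0.386 ± 0.135 CPM (log2 -1.40, adjusted p = 0.143). Slit3 passed with the replicate block (log2 -1.57, adjusted p = 0.0302). Leaving out control replicate 1 moved its estimate to -2.02, and leaving out the other control moved it to -0.22. Among shared proteases Furin, the protease that matures TGF-beta1, BMP and PDGF precursors, rose by 0.55 (adjusted p = 0.0185), a call lost with total count scaling and without any 1 verapamil library.

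Across all pathways together, 75 of 147 tested genes other than the members were lower (51%) and 11 higher (7.48%), with a median log2 fold change of -0.83. Over all tested genes 15.4% were lower and 9.99% higher, with a median of -0.013. Without 1 verapamil library the counts were 53 to 58 lower and 3 higher. Over the 12541 to 12571 genes tested in these fits, 1009 to 1093 were lower and 440 to 476 higher. Counts without a control are not given, since 1 control was then left.

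**Figure D5:**
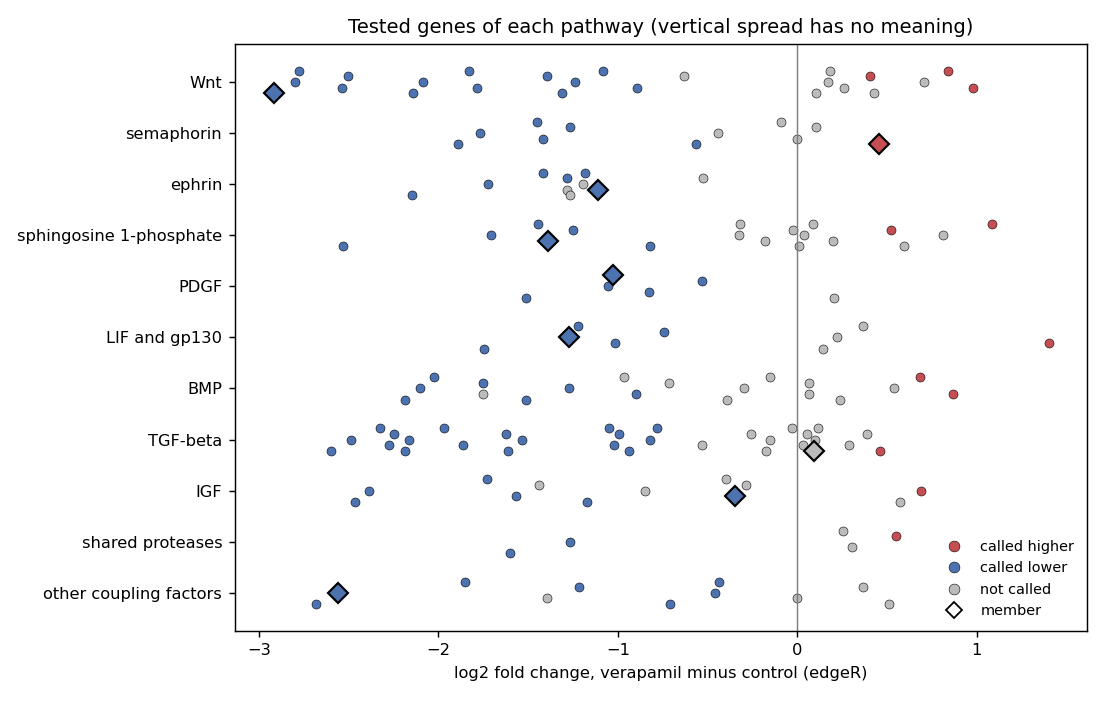
Log2 fold change (x axis, verapamil minus control) of every tested gene of the pathways around the members, one row per pathway, blue where called lower, red where called higher and grey where not called, with members as diamonds. The 75 genes called lower outnumber the 11 called higher, and Sema4d stands on the higher side of a row in which no other gene was called higher.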

How the data were processed

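The labels list RNA-seq of 6 libraries, of which 5 were used and control replicate 2 was not analysed here. The authors deposited estimated counts, 1 value per gene and library, not whole and, as judged from the values, not normalized. Per the labels' protocols, Trizol RNA and a SMARTER mRNA kit were used, and the submitters' processing notes name GRCm38 and mm10. Aligner, counting program, annotation and strand use: not given in the sources used. Counts were rounded. edgeR 4.0.16 (R 4.3.3) applied TMM scaling, its default filter (minimum count 10, total 15) and a quasi-likelihood test with group as the only term (3 residual and 3.28 prior degrees of freedom, biological coefficient of variation 15.3%). CPM are on effective library sizes. Standard errors are the absolute log2 fold change over the square root of F. The procedure was checked on simulated counts with the same spread in both groups, so the unequal spread of these groups was not covered. DESeq2 1.42.0 and limma 3.58.1 were alternatives.

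Exon lengths and overlaps come from GENCODE M21, gene positions and promoter windows from RefSeq GRCm38.p6. Exon length is the union of basic transcripts. Protein sequences were not used here, so relatives were not ranked by identity. Members and lists were chosen with earlier results of these data known, and the split of the lists by pathway was made after values were seen. Named genes were the members, the 3 largest called changes per direction and pathway list at 1 CPM or more, leading markers and 21 fixed genes.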

Additional observations from a re-analysis of the deposited data

How the results depend on the processing

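Alternatives were other scalings, filters, tests, the replicate block and leaving out 1 library. Members called higher numbered 0 with upper quartile factors, total count scaling, the stricter filter, the replicate block and without any 1 verapamil library. Members called lower numbered 3 to 7 without 1 library. Genes called over the table were 626 higher and 2920 lower with total count scaling, and 440 to 3983 higher and 1009 to 3825 lower without 1 library (1261 and 1939 with all). Without 1 library the log2 fold change ranged from -2.87 to -2.12 for Cthrc1, -1.39 to -0.75 for Efnb2, -1.67 to -0.70 for Lif, -0.39 to -0.33 for Igf1, 0.29 to 0.64 for Sema4d and -0.083 to 0.30 for Tgfb1. Igf1 was -0.34 without a filter and with the block, Lif -1.20 with limma, and Sema4d 0.34, 0.27, 0.44 and 0.45 with upper quartile factors, total count, the stricter filter and the block. Tgfb1 was -0.032 and -0.081 with upper quartile and total count scaling. Sphk2 was -0.087 and -0.14 under these, and -0.093 to 0.19 without 1 library. Plxnb2 was -0.013 and -0.084 under them, and -0.030 to 0.25 without 1 library. Without 1 library Il6st was -0.11 to 1.08 and Igf1r -0.86 to 0.31. Cthrc1 had too few counts for the stricter filter.

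With 1 control left, the lone control is assumed to vary like the treated libraries. Any fit without 1 library, control or verapamil, has fewer residual degrees of freedom than the fit with all libraries. The spread behind these fits also differs. Control replicates 1 and 3 differed by 29.4 times the variance of counting, and pairs of verapamil libraries by 2.06 to 3.84 times. A call lost without a verapamil library can reflect lower power, but the parts of degrees of freedom and spread in it were not tested. The causes of other changes were not tested. Among 62 other named called genes 44 were called under every alternative and 0 changed sign. The numbers shared by controls and treated libraries are not stated to mark a pairing. With 2 pairs the deviations of same-numbered libraries correlated at 0.186 across genes. The replicate block gave 1342 higher and 1975 lower genes and 0 and 6 members, with an adjusted p of 0.0907 for Sema4d and 0.237 for Igf1. In that fit verapamil replicate 2 has no control of its number and so adds nothing to the estimated difference. The block also leaves fewer residual degrees of freedom than the main fit. Their part in the calls lost under it was not tested. Depth limits Bmp6, Cthrc1 and Wnt10b most.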
